A study of Homo sapiens and Mus musculus with 20 samples.

Results

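Accessible chromatin was followed along SSPN, SEMA3D, MYO3B, CXXC5 and GNAZ, 5 genes that the study singled out for sites that gained or lost accessibility after sodium butyrate (NaBu). For each gene, every peak within the gene body and 50 kb on both sides (GENCODE 44, GRCh38) was taken from the peak lists of 12 SW480 libraries, and overlapping peaks were merged into regions. This gave 275 regions of 252173 in all, of which SSPN held 82, SEMA3D 30, MYO3B 85, CXXC5 44 and GNAZ 34. The working name of the group, long genes, held for SSPN (177.3 kb), SEMA3D (191.5 kb) and MYO3B (477.03 kb). It did not hold for GNAZ (54.51 kb) and CXXC5 (36.58 kb), since 68.6% and 57.8% of protein-coding genes are shorter than these. Because the genes were picked on the NaBu libraries, the NaBu values are given as a description without a test. The sodium propionate (NaPr) libraries, which had untreated libraries of their own, were not part of that choice and were tested.

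SW480 is an established human colorectal adenocarcinoma line. The 4 groups were cells given 10 mM NaPr, their untreated controls, cells given 1 mM NaBu, and their untreated controls, each with 3 libraries and each treatment lasting 12 to 16 h. The labels date the NaPr and NaBu experiments differently and do not say whether the libraries of a group came from separate cultures, so p-values measure the spread among these libraries, which may be technical. The compounds were given at different doses, and their values are set side by side here without a comparison between them. Each reaction is a bulk sample, in which fewer cells with an open site and less opening per cell cannot be told apart.

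ATAC-seq uses the Tn5 transposase to cut and tag DNA that is not covered by nucleosomes, so a peak marks an open promoter, enhancer or other protein-bound site. Gut bacteria ferment dietary fibre to short-chain fatty acids, among them propionate and butyrate. Butyrate is well known as an inhibitor of histone deacetylases, and both acids can be attached to histone lysines. SSPN (sarcospan) is a membrane protein of the dystrophin-glycoprotein complex, which ties the cytoskeleton to the extracellular matrix. SEMA3D is a secreted semaphorin, a guidance cue read by neuropilins and plexins. MYO3B is a class III myosin that carries a kinase domain and works in actin-rich protrusions. CXXC5 binds unmethylated CpG through its CXXC zinc finger and is known to bind Dishevelled and dampen Wnt signaling. GNAZ encodes the alpha subunit of the G protein Gz, which inhibits adenylyl cyclase.

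The level of a region in a library is its percentile rank by the −log10 p of its strongest peak among the regions tested in that experiment. A region without a peak has a rank of 0, and the weakest listed peaks began at ranks between 15.5 and 26.1, so a step between 0 and this range can be small in reads. Regions with a peak in at least 2 of the 6 libraries of an experiment were tested. Changes are differences of mean rank in percentile points with the standard error (SE) from limma. Tags are the overlapping fragments at a summit, recovered from the fold enrichment and −log10 p. Regions are numbered along the direction of each gene, and positions are given in kb from the start of its canonical transcript.

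The 200 bp around the summit are printed for the regions on which the description turns, 1 each for SSPN, SEMA3D, MYO3B and GNAZ and a pair for CXXC5. Those of SSPN, SEMA3D, MYO3B and GNAZ carried the largest changes of their genes in tags or rank after NaBu, and those of CXXC5 changed in rank after both compounds. The bases are from GRCh38, plus strand, and capitals mark matches to the motifs searched, which were TGACTCA or TGAGTCA for AP-1, TGACGTCA for CRE, GGAATG for TEAD, AGATAA or TGATAA for GATA, CCACACCC, CCACGCCC, CCCCACCC or CCCCGCCC for KLF, and the CTCF and HNF4 motifs, on both strands.
SSPN_47, chr12:26239566-26239765, intronic, with 1 AP-1 match: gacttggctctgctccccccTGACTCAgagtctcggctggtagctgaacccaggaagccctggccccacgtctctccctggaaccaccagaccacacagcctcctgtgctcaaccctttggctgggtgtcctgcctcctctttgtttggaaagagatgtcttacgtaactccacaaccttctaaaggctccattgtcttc
SEMA3D_29, chr7:85002037-85002236, intronic, with a GATA and a TEAD match: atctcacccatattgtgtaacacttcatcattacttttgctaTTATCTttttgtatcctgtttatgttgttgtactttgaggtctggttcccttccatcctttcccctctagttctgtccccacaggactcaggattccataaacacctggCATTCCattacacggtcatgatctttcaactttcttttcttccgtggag
MYO3B_30, chr2:170371452-170371651, intronic and within the antisense gene MYO3B-AS1, with a TEAD and a GATA match: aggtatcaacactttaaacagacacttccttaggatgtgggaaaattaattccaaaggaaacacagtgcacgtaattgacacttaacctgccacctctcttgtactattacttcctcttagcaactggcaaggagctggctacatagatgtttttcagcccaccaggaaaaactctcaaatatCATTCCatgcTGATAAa
CXXC5_14, chr5:139655760-139655959, intronic, with 1 TEAD match: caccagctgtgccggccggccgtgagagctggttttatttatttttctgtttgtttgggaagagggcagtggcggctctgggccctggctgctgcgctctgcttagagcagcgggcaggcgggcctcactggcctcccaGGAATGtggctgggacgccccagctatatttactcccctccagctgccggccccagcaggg
CXXC5_36, chr5:139700010-139700209, downstream of the gene, with no match: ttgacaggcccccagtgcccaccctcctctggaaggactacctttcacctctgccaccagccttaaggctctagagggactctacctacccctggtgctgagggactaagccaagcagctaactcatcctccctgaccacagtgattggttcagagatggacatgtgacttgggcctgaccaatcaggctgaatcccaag
GNAZ_13, chr22:23108059-23108258, intronic and also within RSPH14, with 1 KLF match: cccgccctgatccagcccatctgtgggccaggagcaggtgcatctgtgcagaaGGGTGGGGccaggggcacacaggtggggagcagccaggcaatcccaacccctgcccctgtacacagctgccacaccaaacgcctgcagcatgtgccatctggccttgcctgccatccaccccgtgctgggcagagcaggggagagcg

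Of the motifs, GATA differed most in share from all regions of the same length, with matches in 20.7% of the 275 regions against 13.3% of all 252173. Most of these matches lay in the windows of SSPN, SEMA3D and MYO3B. In CXXC5 only CXXC5_15, CXXC5_17, CXXC5_22 and CXXC5_31 had a GATA match, and in GNAZ only GNAZ_18 and GNAZ_31. The windows also differ in GC content, whose part was not tested. AP-1 matched in 13.1% against 12.7%, TEAD in 15.6% against 15.2%, KLF in 11.6% against 12.6% and CTCF in 2.18% against 2.28%. CRE and HNF4 matched in none of the 275, against 0.289% and 0.038% of all. A match is a run of letters and not a bound site.

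Regions merged over the 12 lists were denser in the windows than over the whole assembly, in genes picked for holding responsive sites. For SEMA3D this rested on the libraries of the NaBu experiment, as given below. The windows held 29.6 regions per 100 kb for SSPN, 10.3 for SEMA3D, 14.7 for MYO3B, 32.2 for CXXC5 and 22.0 for GNAZ, against 8.17 over the whole assembly. Of the 275 regions, 51 had a peak in all 12 libraries and 78 in 1 library, and 159 lay in introns. Other coding genes share the windows, namely BHLHE41, ITPR2 and RASSF8 around SSPN, UBE2D2 around CXXC5, and RAB36 and RSPH14 around GNAZ, and a region was not assigned to one gene over another. Per library, 112145 to 144398 intervals were listed in the NaPr and 108442 to 128955 in the NaBu experiment. The lowest background, a measure of relative depth, was 0.936 to 2.35 tags in the NaPr libraries and 2.11 to 3.03 in the NaBu libraries. Promoter peaks of the epithelial genes EPCAM, CDH1, KRT8, KRT18 and VIL1 were present in 12 of 12 libraries, and that of CDX1 in none. Of the markers of other cell types, PTPRC and CD3E had none, VWF had a peak in 6 libraries, and PECAM1, COL1A1 and PDGFRB had one in all 12. A part of other cells in the results was not tested.

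SEMA3D stood apart from the other 4 genes by experiment and not by treatment. In the NaPr experiment 1, 2 and 2 of its 30 regions had a peak in the untreated libraries and 1, 3 and 1 after NaPr. In the NaBu experiment 13, 19 and 15 had one in the untreated libraries and 17, 14 and 19 after NaBu. The 2 experiments did not overlap, whether the cells were treated or not. The other windows differed less, with 26 to 41 regions per library for SSPN, 27 to 46 for MYO3B, 23 to 32 for CXXC5 and 11 to 19 for GNAZ over all 12 libraries. The summed summit tags of the SEMA3D regions were 13 to 44 in the NaPr experiment and 684 to 1066 in the NaBu experiment. Of 8 SEMA3D regions with a peak in all 6 NaBu-experiment libraries, 7 (87.5%) had none in any NaPr-experiment library, against 12.6% of 72559 such regions over the genome. For SSPN, MYO3B, CXXC5 and GNAZ this share was 14.3%, 14.8%, 0.0% and 16.7%. Depth moved with the experiment, as given above, and so did the lowest listed −log10 p, at 3.37 to 6.53 in the NaPr and 7.25 to 9.38 in the NaBu experiment, and their part in the difference was not tested. The experiments differ in date and in anything that went with it, which cannot be told apart from a difference between the cultures.

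**Figure D1:**
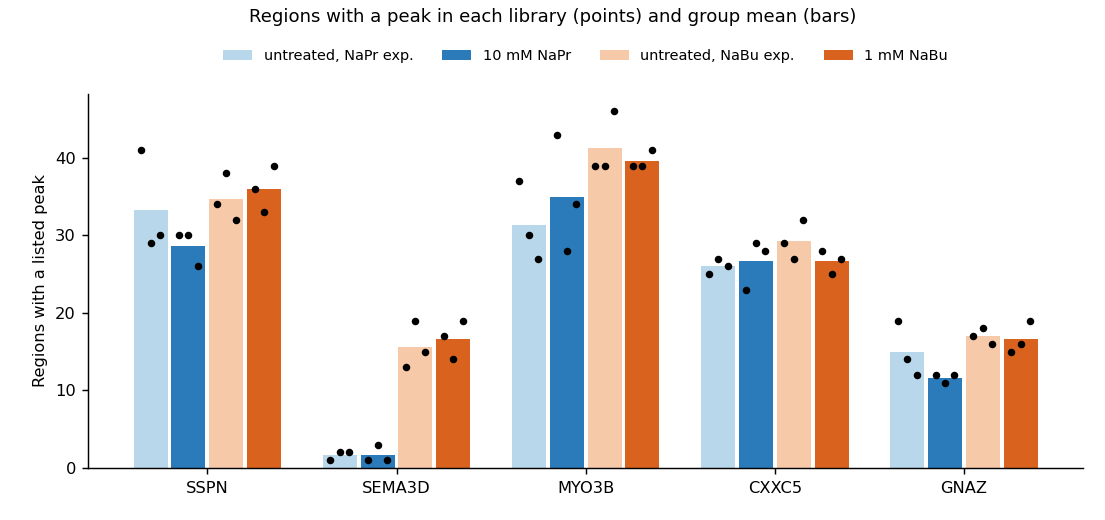
Number of regions with a listed peak (vertical axis) in the window of each gene, with bars for the mean of 3 libraries and a point for each library. SEMA3D has 1 to 3 regions in the 6 libraries of the NaPr experiment and 13 to 19 in the 6 of the NaBu experiment, while the other 4 genes have 11 or more in every library.

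Along SSPN, NaBu was followed by gains and losses in the same window. Of 43 tested regions, 10 (23.3%) passed the limma threshold upwards and 7 (16.3%) downwards, near the 19.8% and 17.2% of all regions. The AP-1-bearing intronic region SSPN_47, 44.09 kb from the start, had 79, 62 and 70 tags in the untreated libraries and 266, 299 and 294 after NaBu. All treated libraries lay above all untreated ones, and relative to each library's background the level was 27.9 ± 1.66 (SD, n = 3) without and 117 ± 3.63 with NaBu, a 4.22-fold rise. SSPN_47 and the other regions named for tags were chosen after their values were seen.

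The largest rises in rank were at smaller sites. SSPN_30, 36.93 kb upstream and also in an unnamed noncoding gene, had no peak in any untreated library and ranks of 43.6, 50.004 and 50.7 after NaBu. SSPN_41, in the intron 3.38 kb downstream and with an AP-1 match, had ranks of 0, 45.2 and 43.9 without and 69.3, 69.3 and 70.003 with NaBu. The largest falls lay towards the end of the gene and downstream of it. SSPN_61 at 82.13 kb had ranks of 55.5, 52.7 and 31.6 and no peak after NaBu. SSPN_81 at 146.54 kb, past the end of SSPN and in ITPR2, an intracellular calcium channel gene, went from 58.6, 51.1 and 62.9 to 36.2, 0 and 24.6. In tags relative to background, SSPN_69 at 92.6 kb fell most among regions with a peak in all 6 libraries, from 282, 181 and 240 to 69, 80 and 93, which was 2.78-fold. The promoter region SSPN_39 held ranks of 91.4, 92.1 and 89.5 without and 90.9, 87.6 and 88.5 with NaBu, so that the groups overlapped.

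SEMA3D after NaBu showed its strongest site near the end of the gene. SEMA3D_29, in an intron 184.92 kb from the start, had 58, 72 and 55 tags in the untreated libraries and 270, 303 and 307 after NaBu. Relative to background this was 25.1 ± 7.91 (SD, n = 3) against 120 ± 3.82, a 4.79-fold rise, and its rank went from between 62.7 and 77.2 to between 96.4 and 97.4. The NaPr experiment had no peak there in any library. A pair of intronic regions 82.86 and 83.53 kb from the start rose next. SEMA3D_7 had ranks of 0, 41.9 and 40.2 without and 67.9, 77.5 and 71.2 with NaBu. SEMA3D_6, which has 2 AP-1 matches, had no peak without and ranks of 41.5, 38.4 and 24.7 with NaBu.

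The losses of SEMA3D lay between these sites. SEMA3D_16, over a coding exon at 150.06 kb, had ranks of 64.5, 64.8 and 63.4 and 79, 61 and 66 tags, and no peak after NaBu. SEMA3D_19 in the intron at 155.42 kb had ranks of 39.3, 49.0 and 41.4 and likewise no peak after NaBu. The promoter of the canonical transcript (SEMA3D_3) had no peak in any NaBu-experiment library. An internal start of a shorter transcript at 145.18 kb (SEMA3D_13, with a CTCF match) was the only SEMA3D region with a peak in all 12 libraries. It had ranks of 68.3, 67.9 and 65.7 without and 74.8, 72.2 and 76.9 with NaBu. In all, 5 regions of 21 (23.8%) passed the threshold upwards and 3 (14.3%) downwards, near the 19.8% and 17.2% of all regions.

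MYO3B, the longest of the genes, had 9 of 48 regions (18.8%) past the threshold upwards and 10 (20.8%) downwards, near the shares of 19.8% and 17.2% over all regions. MYO3B_30, 193.4 kb into the gene, had 42, 31 and 35 tags without and 162, 162 and 161 with NaBu, a 4.68-fold rise relative to background from 14.2 ± 0.422 to 66.4 ± 2.85 (SD, n = 3). Its neighbour MYO3B_31, at 196.5 kb, went the other way, from ranks of 35.1, 49.5 and 53.6 to no peak. The background that the peak caller set around this pair was 4.96 to 6.63 tags without NaBu and 11.2 to 12.4 at MYO3B_30 with it, and its part in the loss of MYO3B_31 was not tested. MYO3B_7, 20.9 kb upstream and with an AP-1 match, had no peak without and ranks of 29.0, 45.6 and 40.9 with NaBu. MYO3B_72 at 436.63 kb had ranks of 46.8, 38.3 and 44.9 without and no peak with NaBu. As a ratio of tags relative to background, the largest fall among regions with a peak in all 6 libraries was MYO3B_48 at 277.68 kb, from 88, 72 and 74 to 41, 31 and 40, which was 2.02-fold. The promoter region with the highest ranks, MYO3B_34, lies at an internal start shared with MYO3B-AS1 and had ranks of 73.8, 79.3 and 76.2 without and 77.4, 76.3 and 79.8 with NaBu.

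**Figure D2:**
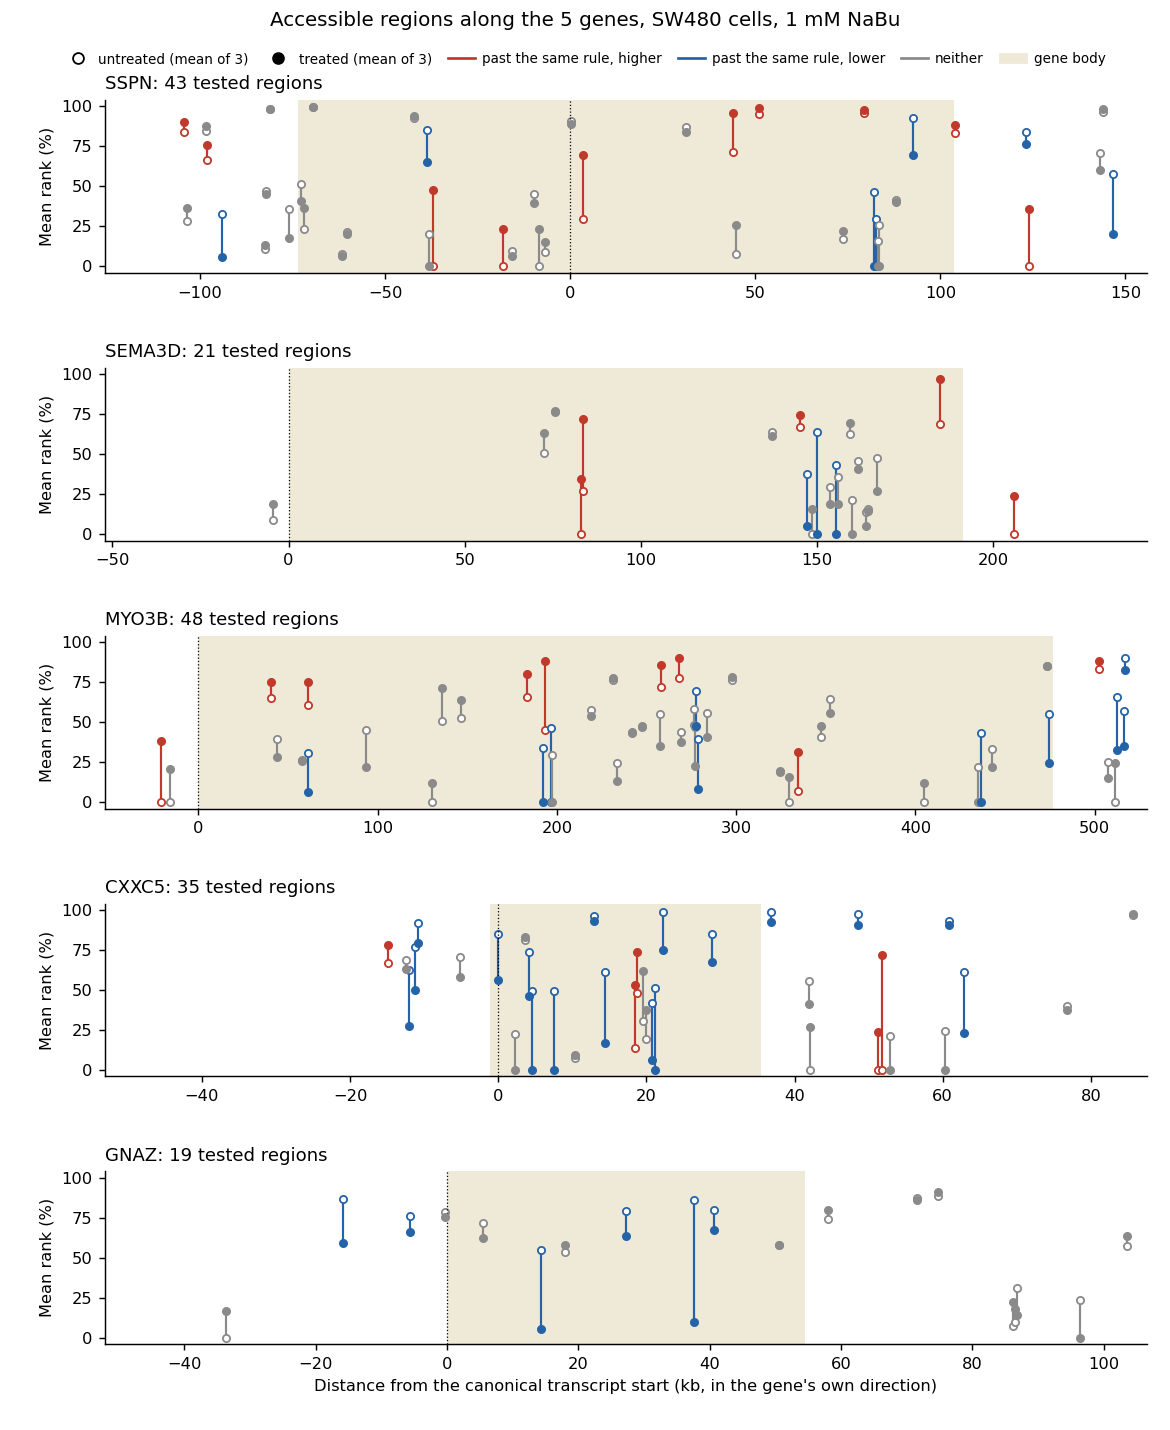
Mean percentile rank (vertical axis) of each tested region against its distance from the canonical start in kb, before (open) and after (filled) 1 mM NaBu, each the mean of 3 libraries. Shading marks the gene body and colour the regions past the limma threshold, as a description; SSPN, SEMA3D and MYO3B mix rises and falls, CXXC5 has 17 falls and 5 rises, and GNAZ has 6 falls and no rise.

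Along CXXC5, falls after NaBu lay over the gene and on both sides of it. Of 35 tested regions 17 (48.6%) passed the threshold downwards, from 12.05 kb before the start to 62.92 kb after it, and 5 (14.3%) upwards, beside 17.2% and 19.8% of all regions. CXXC5_26, a 2182 bp intronic region at 22.18 kb, went from 813, 509 and 667 tags to 160, 169 and 127, which was 4.14-fold lower relative to background (259 ± 15.8 against 62.6 ± 10.5, SD, n = 3). The region at the canonical start (CXXC5_9), shared with the antisense gene CXXC5-AS1, went from ranks of 89.4, 84.2 and 81.0 to 72.3, 39.5 and 57.1. The region at an internal start 12.88 kb on (CXXC5_17) held ranks of 95.5, 96.8 and 96.7 without and 93.9, 94.1 and 92.1 with NaBu, while its tags went from 577, 414 and 497 to 292, 301 and 280. Its mean rank fell by 2.94 points, which turned to a rise of 2.22 when regions were ranked by fold enrichment.

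The largest single changes of CXXC5 lay on raised local background. CXXC5_25 had ranks of 45.1, 46.9 and 62.6 and CXXC5_14 of 51.4, 43.7 and 52.9, and neither had a peak after NaBu. CXXC5_36, 51.76 kb downstream, had no peak in the untreated libraries and ranks of 64.0, 70.8 and 80.6 after NaBu. CXXC5_19 had ranks of 0, 0 and 41.7 without and 51.1, 54.4 and 53.7 with NaBu. The caller's local background in the NaBu experiment was 59.9 to 89.7 tags at CXXC5_25 and 49.4 to 69.9 at CXXC5_14 in the untreated libraries, and 37.1 to 41.0 at CXXC5_36 after NaBu. Libraries without a listed peak give no tags or local background for these sites, so how far the tags themselves fell or rose was not measured.

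GNAZ had no region past the limma threshold upwards, beside 19.8% of all regions, and 6 of 19 (31.6%) downwards, beside 17.2%. Of these 6, 4 lay in the gene body and 2 upstream. As a description, 1 region rose at an unadjusted p below 0.05 in limma. Over the genome 57353 of 123730 regions had such a p in either direction. GNAZ_13, intronic at 37.64 kb, had ranks of 86.3, 86.6 and 85.2 and 274, 181 and 202 tags in the untreated libraries, and ranks of 0, 0 and 29.6 after NaBu, with 34 tags in the third library. GNAZ_9 at 14.28 kb, with 2 KLF matches, went from 64.0, 55.04 and 45.4 to 0, 0 and 15.9. GNAZ_3, 15.85 kb upstream and with an AP-1 match, had 152, 90 and 116 tags without and 31, 44 and 39 with NaBu, 2.99-fold lower relative to background. The promoter region GNAZ_5, which also lies in RSPH14, overlapped between the groups, with ranks of 77.7, 81.6 and 76.5 without and 78.2, 73.0 and 76.0 with NaBu. Among regions with a peak in all 3 treated libraries the largest rises, at GNAZ_34 and GNAZ_19, were 6.12 ± 3.94 (SE) and 5.94 ± 3.499 points, and neither passed the threshold.

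Over the 5 genes, 29 of 166 tested regions passed upwards and 43 downwards after NaBu, while over all 123730 regions the shares were 19.8% upwards and 17.2% downwards. The median change was a fall of 2.63 points for the regions of these genes and a rise of 0.710 for all regions. AP-1 matches were in 27.6% of the 29 regions that passed upwards and 23.3% of the 43 that passed downwards. Over the genome these shares were 21.6% and 11.9%. These counts describe genes that were chosen on the same libraries.

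The NaPr libraries test whether the same windows changed in cells that played no part in the choice of genes. Of 119 tested regions of the 5 genes, 5 were higher and 10 lower after NaPr by limma at an adjusted p below 0.05, against 4.57% higher and 3.99% lower of 124067 regions over the genome. The members' shares were 4.20% higher and 8.40% lower. In limma 31 of the 119 had an unadjusted p below 0.05, beside 31503 of the 124067 regions over the genome. In this experiment CXXC5_35 had listed peaks only in treated libraries, and CXXC5_14, CXXC5_40 and MYO3B_71 only in untreated ones. These called regions passed the filter only through the group where they were higher, so their p-values are given as a description. With a peak in at least 1 library as the filter, 2 regions were called higher and 8 lower. The median change was a fall of 1.52 points, against a rise of 0.0244 for all regions. By gene, SSPN had 2 higher and 2 lower of 35, MYO3B 1 and 1 of 39, CXXC5 2 and 7 of 29, and GNAZ none of 14, of which 2 had an unadjusted p below 0.05. SEMA3D had 2 tested regions and neither was called by limma, also at an unadjusted p. No region of the genes, or of the genome, was called when any one of the 3 treated libraries was left out, although 28873 to 29851 regions of the genome then kept an unadjusted p below 0.05 in limma. On the scale of tags the split over all called regions moved from 53.3% higher by rank to 92.5% higher against background and 38.1% against the library median, and for the genes from 5 higher and 10 lower to 6 and 3, or 6 and 18.

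**Figure D3:**
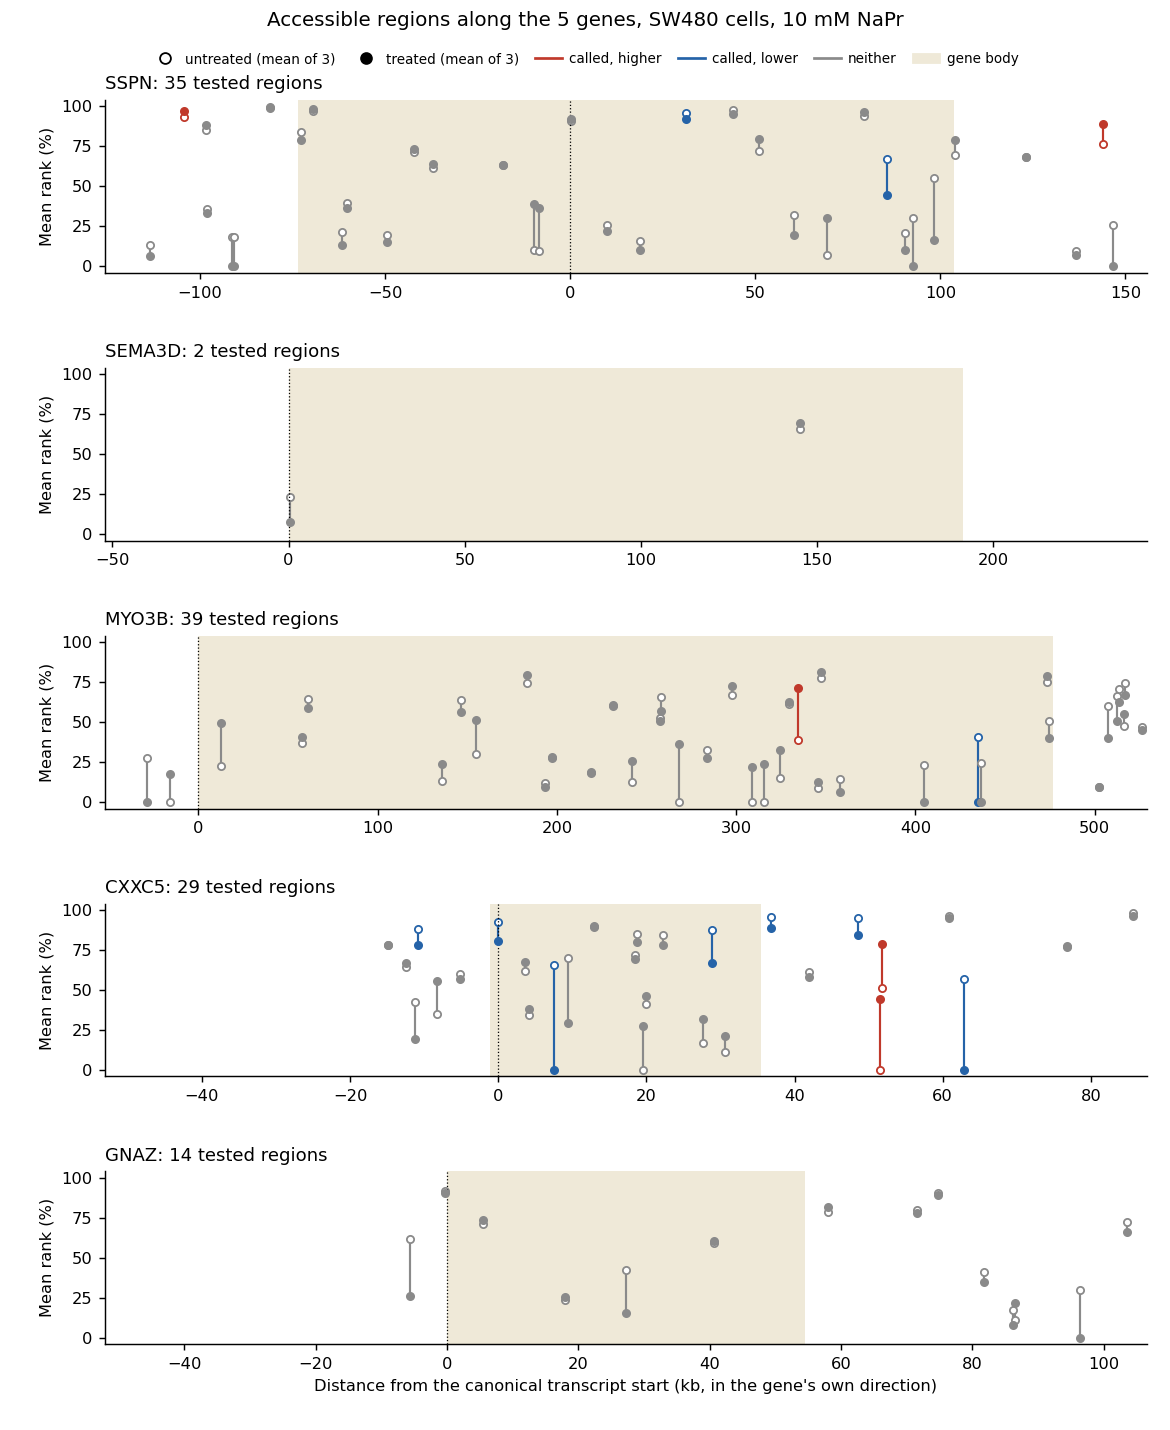
Mean percentile rank (vertical axis) of each tested region against its distance from the canonical start in kb, before (open) and after (filled) 10 mM NaPr, each the mean of 3 libraries. Coloured regions were called by limma at an adjusted p below 0.05; 9 of the 15 called regions belong to CXXC5, and SEMA3D has only 2 tested regions.

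CXXC5 held most of the regions that fell after NaPr. CXXC5_14, in the intron 7.51 kb from the start, had ranks of 64.8, 69.3 and 62.6 in the untreated libraries and no peak in any treated library. The change was a fall of 65.6 ± 9.29 points (SE, limma adjusted p = 0.00676, lower in 3 of 3 libraries). The p-values of CXXC5_14 and CXXC5_40 are a description, since both passed the filter only through untreated libraries. Ranked by fold enrichment the fall of CXXC5_14 was 27.1 points and was not called (limma adjusted p = 0.106). The untreated summits of CXXC5_14 held 57, 107 and 111 tags on a local background of 18.9 to 39.3. CXXC5_40, 62.92 kb downstream, had ranks of 53.2, 58.4 and 59.8 without and no peak with NaPr, a fall of 57.1 ± 9.67 points (limma adjusted p = 0.0117), which was 26.2 points and not called by fold enrichment (limma adjusted p = 0.115). CXXC5_28, intronic at 28.8 kb, had ranks of 85.7, 88.2 and 88.2 without and 64.1, 70.99 and 65.5 with NaPr, a fall of 20.5 ± 2.39 points (limma adjusted p = 0.00415). The peak of CXXC5_28 stayed listed in every library, on a local background of at most 21.1 tags.

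The start of CXXC5 fell as well. CXXC5_9, at the canonical start and that of CXXC5-AS1, had ranks of 93.04, 91.7 and 92.1 without and 80.6, 82.03 and 79.6 with NaPr, a fall of 11.5 ± 1.201 points (limma adjusted p = 0.00311). The groups did not overlap. It and CXXC5_6, CXXC5_30 and CXXC5_33 lie outside the rule for named regions and are given after their values were seen. These last 3 fell by 10.0, 6.48 and 10.9 points, and CXXC5_30 also lies at the start of an unnamed noncoding gene. The internal start CXXC5_17 was not called, with ranks of 85.6, 92.0 and 91.3 without and 93.6, 88.2 and 87.4 with NaPr. Its change of 0.11 ± 1.98 points (limma adjusted p = 0.985) turned negative in 5 alternatives.

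A pair of adjacent sites downstream of CXXC5 rose after NaPr. CXXC5_36 had ranks of 54.1, 54.4 and 45.7 without and 79.4, 78.3 and 78.5 with NaPr, a rise of 27.4 ± 4.05 points (limma adjusted p = 0.00778). CXXC5_35, 51.54 kb downstream, had no peak without and ranks of 51.3, 45.8 and 36.9 with NaPr. This was a rise of 44.7 ± 10.2 points (limma adjusted p = 0.0298, as a description). By fold enrichment neither was called, with rises of 27.2 points at CXXC5_36 and 21.7 at CXXC5_35 (limma adjusted p = 0.0899 and 0.172). Both lie within an unnamed noncoding gene, and CXXC5_35 was not tested in the NaBu experiment, where it had no peak. The tags of CXXC5_36 were 37, 70 and 67 without and 62, 77 and 127 with NaPr, so the groups overlapped before scaling for depth.

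**Figure D4:**
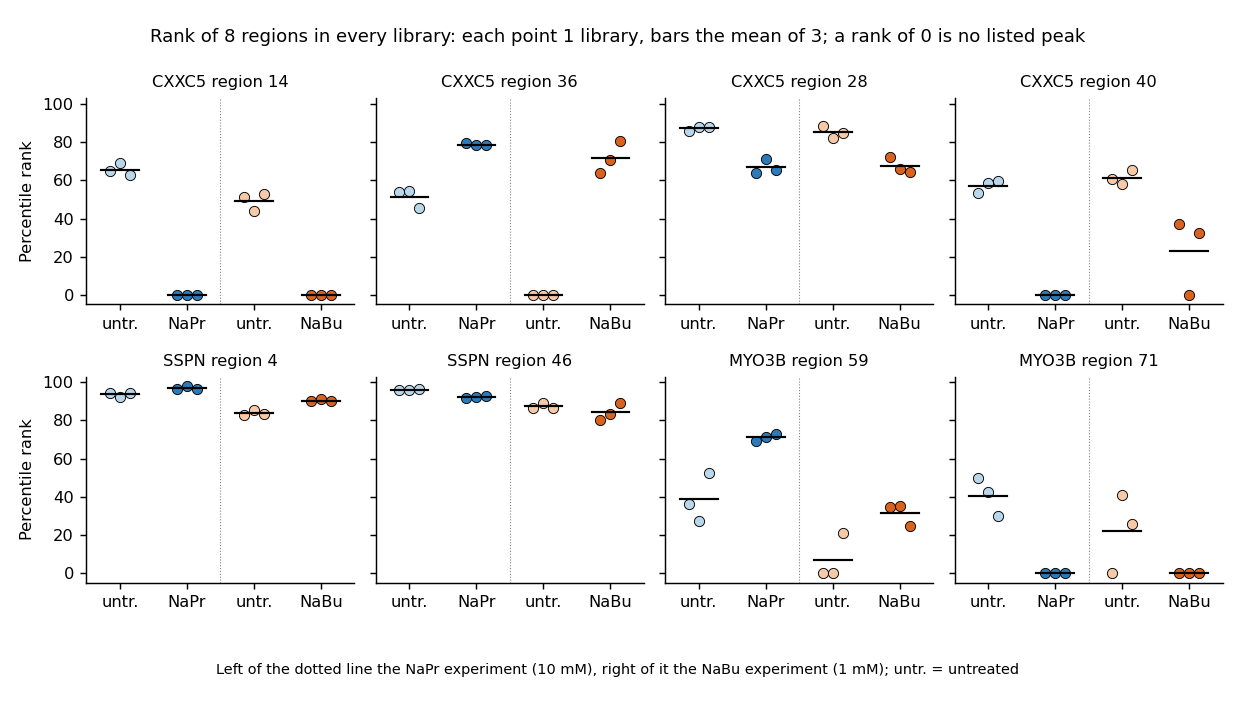
Percentile rank (vertical axis) of 8 regions called after NaPr, in each of the 12 libraries, with bars at the mean of 3 and the NaPr and NaBu experiments on either side of the dotted line. CXXC5_14 has no peak in any of the 6 treated libraries, CXXC5_36 is higher in all 6 than in its own untreated libraries, and MYO3B_71 has no peak in any treated library.

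In the SSPN window the called regions were small changes of rank at strong sites and larger ones at weaker sites. Tags relative to background did not follow this order. They rose 1.52-fold at SSPN_4 and 2.17-fold at SSPN_79, and fell 1.26-fold at SSPN_46 and 1.43-fold at SSPN_65. The median over all regions with a peak in all 6 libraries was a 1.14-fold rise. SSPN_4, 104.19 kb upstream, had ranks of 94.6, 92.1 and 94.2 without and 96.7, 97.9 and 96.5 with NaPr, a rise of 3.39 ± 0.830 points (limma adjusted p = 0.0370). This rise turned into a fall of 0.63 points when regions were ranked by fold enrichment. SSPN_79, 143.82 kb downstream and in ITPR2, rose by 12.4 ± 2.21 points from 73.6, 77.4 and 78.3 to 84.4, 90.2 and 92.1 (limma adjusted p = 0.0134). SSPN_46, intronic at 31.21 kb, fell by 3.91 ± 0.711 points from 95.9, 95.9 and 96.5 to 91.6, 92.1 and 92.9 (limma adjusted p = 0.0145). SSPN_65 at 85.53 kb fell by 21.9 ± 5.63 points from 68.3, 64.7 and 67.6 to 41.5, 50.6 and 42.8 (limma adjusted p = 0.0427). By fold enrichment SSPN_79 and SSPN_65 kept their direction and were not called (limma adjusted p = 0.0603 and 0.0786). Both SSPN_46 and SSPN_65 overlap ITPR2-AS1, and ATAC-seq has no strand.

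The remaining SSPN regions were not called. The largest uncalled changes were 28.6 ± 12.1 points at SSPN_34 and a fall of 39.0 ± 13.7 points at SSPN_71 (SE, limma adjusted p = 0.175 and 0.105). SSPN_47, the region that rose most in tags after NaBu, already had ranks of 98.3, 97.5 and 97.1 in the untreated libraries of the NaPr experiment and 94.6, 94.7 and 96.6 after NaPr (limma adjusted p = 0.0763). SSPN_30, which gained a peak after NaBu, had one in all 6 libraries of the NaPr experiment, with ranks of 62.5, 64.3 and 58.4 without and 70.5, 66.6 and 55.3 with NaPr (limma adjusted p = 0.819). The promoter SSPN_39 had ranks of 91.4, 90.4 and 91.3 without and 91.4, 91.7 and 93.3 with NaPr (limma adjusted p = 0.445), a difference of 1.10 ± 0.892 points that changed sign under other scales.

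In MYO3B 1 region rose and 1 fell after NaPr. MYO3B_59, intronic at 334.43 kb, had ranks of 36.1, 27.2 and 52.7 without and 69.5, 71.3 and 72.8 with NaPr, a rise of 32.5 ± 7.27 points (limma adjusted p = 0.0278), and one of 30.8 points that was not called by fold enrichment (limma adjusted p = 0.0558). MYO3B_71 at 434.7 kb had ranks of 49.7, 42.5 and 29.7 without and no peak with NaPr, a fall of 40.6 ± 10.5 points (limma adjusted p = 0.0438). Its peaks were weak, with 9, 15 and 12 tags. MYO3B_44, with a KLF and a TEAD match, had no peak without and ranks of 28.4, 43.0 and 37.0 with NaPr. The rise of 36.1 ± 10.2 points missed the threshold (limma adjusted p = 0.0561), which it passed by fold enrichment (limma adjusted p = 0.0471). MYO3B_44 passed the filter only through its treated libraries and MYO3B_71 only through its untreated ones, so their p-values are a description. MYO3B_30 had a weak peak, with 7 and 8 tags, in 1 untreated and 1 treated library of the NaPr experiment. The internal promoter MYO3B_34 changed by 0.17 ± 4.74 points (limma adjusted p = 0.991).

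GNAZ and SEMA3D had no region called by limma after NaPr. GNAZ_4, 5.58 kb upstream and in RSPH14, had ranks of 66.9, 57.3 and 62.0 without and 0, 31.1 and 47.8 with NaPr, a fall of 35.8 ± 11.8 points that missed the threshold (limma adjusted p = 0.0870). It holds 1 AP-1 and 2 TEAD matches. GNAZ_13 had no peak in any of the 6 libraries of this experiment, so its loss after NaBu has no counterpart to test. The GNAZ promoter GNAZ_5 changed from ranks of 92.4, 92.1 and 91.4 to 89.9, 88.5 and 92.7 (limma adjusted p = 0.363). GNAZ_29, the largest rise of the gene, had a change of 10.8 ± 14.3 points (limma adjusted p = 0.675). In SEMA3D the internal start SEMA3D_13 had ranks of 63.4, 70.7 and 62.7 without and 66.6, 66.3 and 75.1 with NaPr (limma adjusted p = 0.589). The canonical promoter SEMA3D_3 had weak peaks in 2 untreated and 1 treated library (limma adjusted p = 0.483).

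The regions that moved after NaBu can be read in the NaPr libraries, which share no sample with them. Of the 275 regions, 91 were tested in both experiments, 23 of them in SSPN, 1 in SEMA3D, 30 in MYO3B, 24 in CXXC5 and 13 in GNAZ. Of the 43 that passed downwards after NaBu, 23 were tested after NaPr, where 7 were called lower and none higher. Of the 29 that passed upwards, 20 were tested, where 3 were called higher and none lower. The 48 tested regions that did not pass after NaBu gave 1 higher (2.08%) and 2 lower (4.17%), near the 2.97% and 3.26% of such regions over the genome. As shares, 30.4% of the tested NaBu losses were called lower after NaPr against 18.8% of such regions over the genome, and 3 of 20 NaBu gains were called higher, against 16.9% over the genome. The median change after NaPr was a fall of 11.1 points at the NaBu losses, against a fall of 5.93 over the genome, and a rise of 1.32 at the NaBu gains, against 6.55. All 7 losses called after both compounds belong to 1 gene, CXXC5. Of these, CXXC5_14 and CXXC5_40 passed the filter of the NaPr experiment only through its untreated libraries. The 3 gains called after both were SSPN_4, MYO3B_59 and CXXC5_36.

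**Figure D5:**
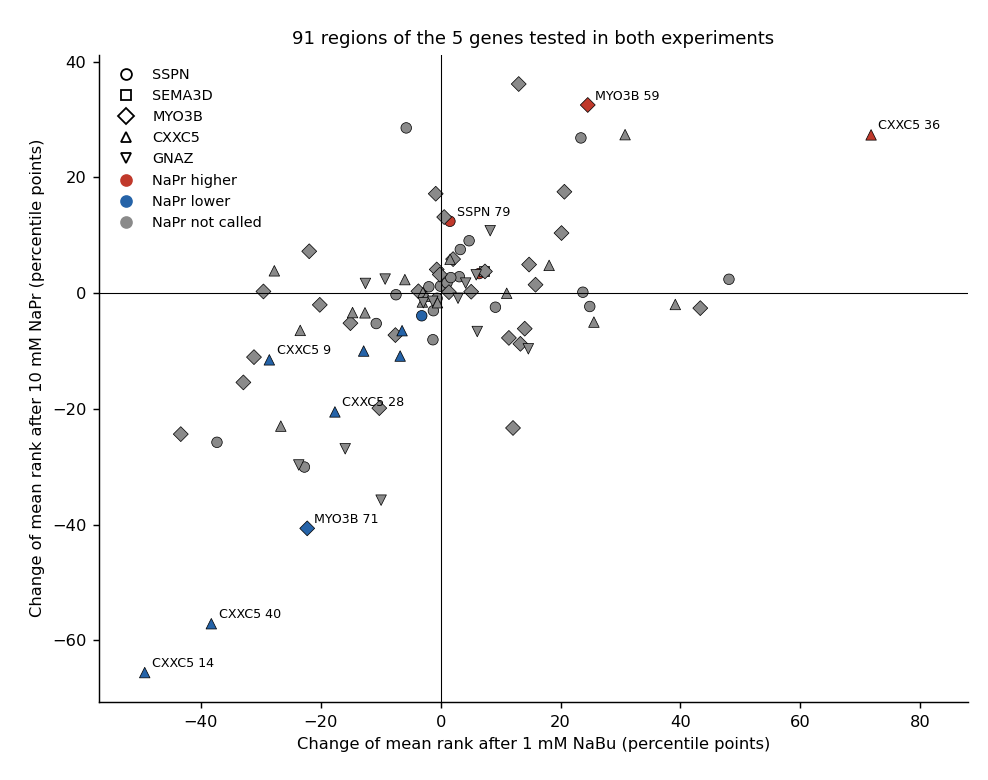
Change of mean rank after 10 mM NaPr (vertical axis) against the change after 1 mM NaBu (horizontal axis), in percentile points, for the 91 regions tested in both experiments, with a marker for each gene and colour for the call after NaPr. Regions called lower after NaPr lie at or below 0 on both axes, led by CXXC5_14 and CXXC5_40, and CXXC5_36 and MYO3B_59 lie highest on both among the called rises.

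Partners and relatives of the 5 genes were read at their promoter regions, 61 genes in all. They came from lists of the dystrophin-glycoprotein complex, class 3 semaphorins with their receptors, and myosins of protrusions with their partners. Further lists held CXXC-domain, TET and Dishevelled proteins, and G protein alpha subunits with RGS proteins. After NaPr 1 of 58 tested promoters was higher and 7 were lower, while 2.42% higher and 8.06% lower were called among 24659 regions at protein-coding starts. After NaBu 7 were higher and 15 lower of 58, with 10.7% higher and 26.4% lower among 25958.

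By family, the complex of SSPN had 1 lower promoter after NaPr, that of the syntrophin gene SNTB1 (a fall of 10.9 ± 2.48 points, SE, limma adjusted p = 0.0293). Its NaBu changes were falls at DAG1, which encodes dystroglycan, and SNTB1, by 11.1 and 9.15 points. Among semaphorins and receptors, PLXNA2 rose by 18.1 ± 3.26 points after NaPr (limma adjusted p = 0.0139) and PLXND1 fell by 9.57 ± 2.58 points (limma adjusted p = 0.0491), both genes of plexins, the signaling chains of semaphorin receptors. NRP2, a neuropilin co-receptor, also fell, by 4.85 ± 0.991 points (limma adjusted p = 0.0211), and is named beyond the rule. After NaBu this family had 2 higher and 5 lower promoters, with PLXND1 falling from a mean rank of 72.0 to 19.5.

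None of 9 tested myosin-related promoters was called after NaPr by limma, with 3 at an unadjusted p below 0.05, and 3 rose and 1 fell after NaBu, among them MYO3A, the paralog of MYO3B, from a mean rank of 9.05 to 39.4, and MYO15A, a myosin of hair cell stereocilia, from 68.2 to 86.3. In the CXXC5 list TET2, which oxidises 5-methylcytosine, and DVL2, a Dishevelled protein, fell after NaPr by 5.69 and 14.9 points (limma adjusted p = 0.0476 and 0.0430). After NaBu 2 promoters of this list rose and 4 fell, led by the Dishevelled genes DVL1 and DVL3, by 25.7 and 20.2 points. In the GNAZ list RGS19, which speeds GTP hydrolysis by Gz, and GNAQ fell after NaPr by 11.2 and 6.52 points (limma adjusted p = 0.0241 and 0.0394), and 3 promoters fell after NaBu.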

How the data were processed

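Per the labels, 12 SW480 ATAC-seq libraries were made with the Omni-ATAC protocol. Per the study's methods and processing notes, the authors aligned reads to GRCh38 with Bowtie2 and called peaks per library, without pooling, with MACS2 in the ENCODE pipeline. The deposited lists give each peak's interval, summit, fold enrichment over local background as a ratio, −log10 p and −log10 q, and numbering ended at 300000 in each list. The 8 mouse CT26 libraries were not used here.

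Peak intervals were merged over the 12 lists where they overlapped by at least 1 bp, and a region's level was its highest deposited −log10 p, converted to a percentile rank among tested regions (a peak in at least 2 of 6 libraries), with 0 for no peak. Ranks were fitted with limma 3.58.1 (lmFit, eBayes with trend, two-sided, Benjamini-Hochberg adjustment over all regions, called below 0.05) in R 4.3.3, with treated against untreated libraries of the same experiment. The fit was run on simulated normal values with a limited spread and no ties at 0. That run does not cover regions without a peak in a whole group. Ranks do not move with a change common to all peaks of a library. Summit tags were solved from the fold and −log10 p as a Poisson test with a pseudocount of 1, within 0.01 of the deposited −log10 p in 100.0% of intervals, and were divided by the lowest background of the list. Tags cover counting only, PCR copies are not independent molecules, and read totals were not analysed here. At most 0.796% of intervals were identical between any 2 libraries of the same group, and each library was counted once. Pairs of libraries from different groups were not compared.

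The result for 1 marker gene is not reported here. The members, gene lists and motifs were chosen with earlier results of these data known. Named for each gene were its promoter region (within 1 kb of a start, highest mean rank), the 2 largest rises and falls after NaBu with a peak in all 3 libraries of the higher group, the regions called after NaPr (above 6, the 3 largest each way) and the largest rise and fall after NaPr. Alternatives were another ranking column, merging, summit windows, filters, list lengths, tag scales, one fit of all libraries, flanks, a replicate block and leaving out each library.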

Additional observations from a re-analysis of the deposited data

How the results depend on the processing

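After NaPr the genes had 5 regions called higher and 10 lower. Ranking by fold enrichment gave 1 and 4, summit windows 9 higher, no filter 2 higher, tags over background 3 lower and tags over the median 18 lower. The gene body with 5 kb on both sides held 1 higher, and the gene body alone 1 higher and 6 lower, by its own construction. Leaving out 1 library gave 0 to 1 higher and 0 to 6 lower. After NaBu the description gave 29 and 43. It became 15 and 26 by fold enrichment, 47 higher with summit windows, 25 lower with a peak in all 6 libraries, 24 lower with the top 50000 intervals, 17 higher on either tag scale, 19 higher with all 12 libraries in one fit and 28 lower in the gene body alone. Where no construction is named, the cause was not tested.

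Direction turned at SSPN_4 after NaPr by fold enrichment (-0.63 points) and at promoters that were not called. These were SSPN_39 (-1.40 by fold enrichment and -0.021 log2 in tags over the median), CXXC5_17 (-1.77 points in regions of the 6 libraries, -0.121 log2 in tags over background, -0.379 log2 over the median, and -2.03 to 1.37 points over the fits without 1 library), GNAZ_5 (1.16 with summit windows) and MYO3B_34 (-2.31 to 2.28 over the fits without 1 library). After NaBu CXXC5_17 turned to 2.22 by fold enrichment. After NaPr the other regions named by the rule for NaPr or as promoters kept their direction in every alternative that gave them a value. After NaBu this held for the other regions past the threshold that were named for NaBu or as promoters. A turn at NaBu regions that did not pass was not recorded. Regions outside the rule were not followed one by one through the alternatives.

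Same-numbered treated and untreated libraries had correlations of their deviations of 0.0111, 0.0123 and 0.0461 in the NaPr experiment. In the NaBu experiment these were 0.0221, 0.0071 and 0.0126. Pairs of different number ranged from -0.0344 to 0.0198 in the NaPr and from -0.0217 to 0.0098 in the NaBu experiment. With 3 libraries per group these values cannot tell whether same-numbered samples were paired, and the main fit took them as unpaired. With the replicate block limma called 0 higher and 0 lower regions of these genes after NaPr, with 29238 regions of the genome at an unadjusted p below 0.05, and 26 and 45 passed after NaBu. Of the 9 NaPr-experiment pairs, not every library correlated best with its own number. Depth was lowest in replicate 1 of both NaPr-experiment groups, at 0.936 and 0.938 background tags, and weak peaks there rest on few tags.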
